A study of Mus musculus with 2 samples.

Results

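The genes described here encode collagens, laminins and other extracellular matrix proteins, together with a few enzymes, inhibitors and mesenchymal genes that accompany them. They were chosen by gene name, by a rule that holds no measured value but was written with earlier results of these data known: every gene symbol that a probe set carried alone and that matched a collagen chain (Col), a laminin chain (Lama, Lamb or Lamc) or a tissue inhibitor of metalloproteinases (Timp), and 19 further names from Dcn to Lrat. The rule found 149 of 45101 probe sets and 73 of 18194 genes, of which 11 encode fibrillar collagens, 21 basement membrane proteins and 41 other matrix proteins. Fbn1 and Loxl2, also in the rule, had no probe set that named them alone and were not analysed here.

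Livers of 2 male mice aged 3 months, of 129Sv/C57BL6 background and fasted overnight, were profiled on Affymetrix expression arrays, 1 array for each animal. The control group held 1 mouse, labelled only as control, and the Tmprss6-deficient group held 1 Tmprss6-/- mouse made by gene targeting. Tmprss6 encodes matriptase-2, a hepatocyte membrane protease that restrains hepcidin, and the design asks how the liver transcriptome differs without it. With 1 array per group there is no replicate error, no test and no p-value, so each difference below is between these 2 animals, and the precision is limited by the number of arrays. The targeted gene Tmprss6 read 1868 in the control and 88.1 in the Tmprss6-deficient liver, 21.2-fold lower, in the direction of the labels. Whether its probe set lies in the deleted part is not known here.

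The extracellular matrix of the liver is a thin mesh rather than a dense scaffold. Fibrillar collagens I, III and V lie around portal tracts, vessels and the liver capsule, while collagen IV, laminins, nidogens and perlecan form basement membranes under bile ducts and vessels and a sparse layer along sinusoids. Stellate cells, portal fibroblasts, vascular smooth muscle, endothelium and bile duct epithelium make most of these proteins, and hepatocytes secrete the fibronectin of plasma. When liver is injured, stellate cells lose retinoid stores, become contractile myofibroblasts and raise collagen I and III, TIMP-1 and lysyl oxidases, which is why these genes are read as fibrosis genes.

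Most matrix genes measured in both livers were close between them, at a share near that of all genes. A signal is called measured here where it reached a floor of 17.8, the median over both arrays, and a ratio is Tmprss6-deficient over control. Pairs of signals are given in the order control, Tmprss6-deficient. Of the 73 genes, 40 reached the floor in both livers, 8 in the control alone, 4 in the Tmprss6-deficient liver alone and 21 in neither, which left 52 with a ratio or a bound. Of the 40 measured in both livers, 34 lay within 1.5-fold, beside 8613 of 10244 over all genes measured in both. Of the 52, 7 had only a bound under 1.5-fold, whose true ratio may be larger. By 1.5-fold or more 3 of the 52 were higher and 8 lower, 5 of the 11 by a bound. So 21.2% were past 1.5-fold, against 18.1% of all 12244 measured genes. The share higher was 5.77% against 8.86% of all measured genes, and the share lower was 15.4% against 9.2%. The median log2 ratio was -0.0067, against -0.0049 over all measured genes, with a sign that changed between processing settings. By 2-fold or more, 2 matrix genes were lower (Lgals1 and Lamb3) and 0 were higher, where 2.78% of all measured genes were lower by that much.

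**Figure D1:**
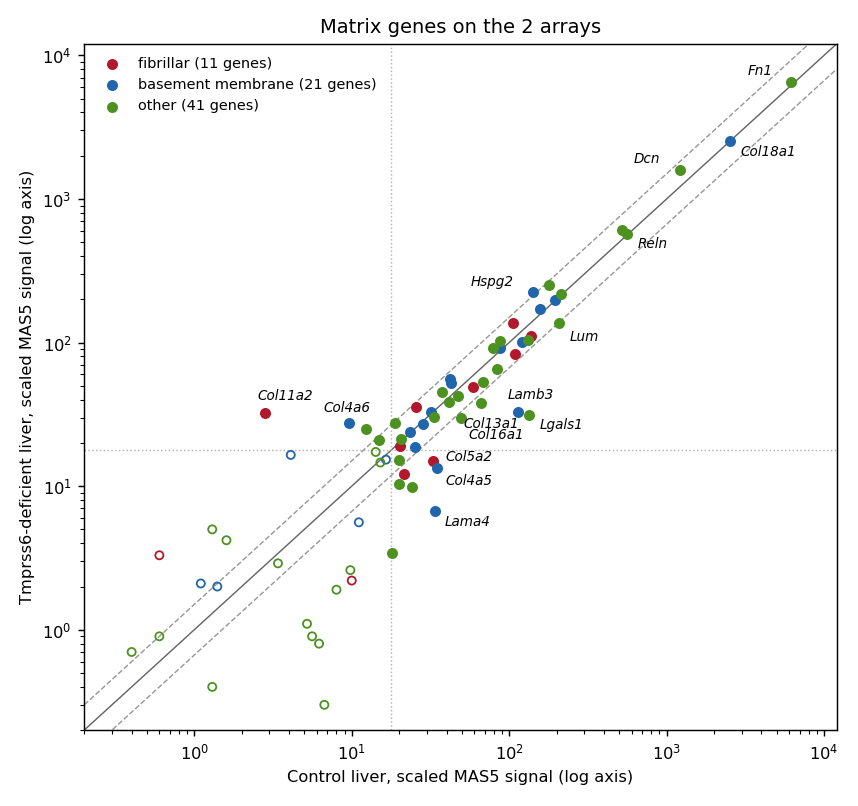
Signal of each of the 73 matrix genes on the control array (horizontal axis) and the Tmprss6-deficient array (vertical axis), in scaled MAS5 units on log axes, 1 point per gene and coloured by group. Filled points are above the floor of 17.8 (dotted lines) on at least 1 array, open points on neither, and the dashed lines mark 1.5-fold. Most filled points lie between the dashed lines, and Lgals1 and Lamb3 lie farthest below them among genes measured in both livers.

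The share past 1.5-fold depended on how bright a gene was. Among matrix genes with a mean signal from the floor to 64, 8 of 31 passed 1.5-fold, beside 26.9% of all measured genes in that range. From 64 to 256 it was 3 of 16, beside 15.4%. Of the 2 genes from 256 to 1024 and the 3 above 1024, 0 passed, beside 8.22% and 8.93%. As a measure of error, only the disagreement between the 2 brightest probe sets of a gene was at hand, which leaves out variation between animals. The probe set spread was taken as the SD of the gap between their log2 ratios, over √2 to refer to a single set. This spread was 0.46 for genes dimmer than 64, 0.37 at 64 to 256, 0.32 at 256 to 1024 and 0.17 for brighter genes. Among 16 matrix genes with at least 2 probe sets measured in both livers, the 2 brightest sets pointed the same way for 11, or 68.8%, against 60.8% of 4369 genes.

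The stretches before the RefSeq starts of the genes past 1.5-fold on both arrays are shown (for Lamb3, the upstream of 2 starts), since these are the members whose difference rests on a measured signal on each side. A promoter window was held for 50 of the 73 genes, and those of Lgals1 and Lum were not. Sequences are from RefSeq, assembly GRCm38.p6, which is the C57BL/6J reference and not the mixed strain of these mice. Each runs 5′ to 3′ on the strand of its gene and ends at the base before the start. Capitals mark GGCGCC, the core of BMP-responsive elements, CAGACA, part of the box that SMAD3 and SMAD4 bind, and GGGCGG, the Sp1 box, each on both strands.
Lamb3, chr1:193301744-193301993, + strand: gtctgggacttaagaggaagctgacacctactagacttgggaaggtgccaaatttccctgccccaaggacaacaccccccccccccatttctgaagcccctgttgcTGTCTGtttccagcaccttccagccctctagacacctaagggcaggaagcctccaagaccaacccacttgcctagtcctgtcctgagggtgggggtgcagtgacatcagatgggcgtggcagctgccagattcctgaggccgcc
Hspg2, chr4:137468553-137468802, + strand: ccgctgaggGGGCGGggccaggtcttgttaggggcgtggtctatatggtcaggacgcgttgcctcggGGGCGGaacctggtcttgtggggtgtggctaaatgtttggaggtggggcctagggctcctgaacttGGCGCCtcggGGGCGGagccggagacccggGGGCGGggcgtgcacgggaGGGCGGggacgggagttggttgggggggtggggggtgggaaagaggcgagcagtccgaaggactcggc
Col13a1, chr10:61979109-61979358, - strand: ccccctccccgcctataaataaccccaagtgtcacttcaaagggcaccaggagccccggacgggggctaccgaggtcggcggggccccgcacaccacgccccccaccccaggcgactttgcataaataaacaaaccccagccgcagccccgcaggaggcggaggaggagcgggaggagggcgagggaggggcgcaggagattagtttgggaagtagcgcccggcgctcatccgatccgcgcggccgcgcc
Col16a1, chr4:130047590-130047839, + strand: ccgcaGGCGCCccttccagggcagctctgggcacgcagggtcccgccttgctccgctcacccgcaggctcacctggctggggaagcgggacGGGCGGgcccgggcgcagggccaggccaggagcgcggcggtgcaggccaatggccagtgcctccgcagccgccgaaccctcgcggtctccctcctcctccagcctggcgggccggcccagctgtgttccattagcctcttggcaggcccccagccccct
In windows of 300 bases (250 before and 50 after the start), GGCGCC was in 9 of 56 matrix windows, or 16.1%, beside 11.9% of all 32851 windows. CAGACA was in 25.0% beside 21.0%, and GGGCGG in 62.5% beside 35.7%. The 250 bases before the start had a median GC content of 59.0% in the matrix genes and 52.4% in all windows. The stretch of Lamb3 held 1 CAGACA on the other strand, 144 bases before the start. Lamb3 has another RefSeq start downstream, not shown, with 0 matches in the 250 bases before it. The stretch of Col13a1 held 0 matches, that of Col16a1 1 GGCGCC and 1 GGGCGG, and that of Hspg2 held 1 GGCGCC and 5 GGGCGG. Matches can share bases, and none is known here to be a bound site.

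Fibrillar collagens gave no common direction. Of 11 genes, 9 were measured. Past 1.5-fold were 1 upward and 1 downward, both by a bound, beside 8.86% and 9.2% of all measured genes. Of the 9 genes, 3 had a ratio above 0 and 6 below, with a median log2 ratio of -0.27. That median is the value of Col1a1, itself a bound. Collagen I is the main fibre of scar. Its first chain gene Col1a1 read 21.4 in the control and 12.1 in the Tmprss6-deficient liver, at least 1.2-fold lower and near the floor. Its partner Col1a2 read 108 and 83.6 on its brightest probe set, a log2 ratio of -0.37. Another Col1a2 set reached the floor in the Tmprss6-deficient liver alone and was at least 1.07-fold higher, the opposite direction. Col3a1, the chain of collagen III, read 106 and 136, a log2 ratio of 0.36. On their brightest sets Col1a2 and Col3a1 thus differed in opposite directions, by sizes about that of the probe set spread of 0.37 at that signal.

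Collagen V nucleates collagen I fibrils. Col5a1 read 25.6 and 35.8 on its brightest set, a log2 ratio of 0.48, with another set at -0.062. Col5a2 read 32.9 and 14.9 and was at least 1.85-fold lower. The mean of all its probe sets was -0.44, short of 1.5-fold. In that mean its other set, below the floor on both arrays, counted as 0 and so shrank the ratio. Col5a3 read 59.3 and 49.2. Col27a1, a fibrillar chain of cartilage, read 137 and 110 on its brightest set (log2 ratio -0.31) and 33.6 and 18.1 on another (-0.89). Col11a2 read 2.80 and 32.3 and was at least 1.81-fold higher, on its only probe set. Col2a1, the cartilage collagen, read 20.4 and 18.9, and Col11a1 and Col24a1 were below the floor on both arrays.

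**Figure D2:**
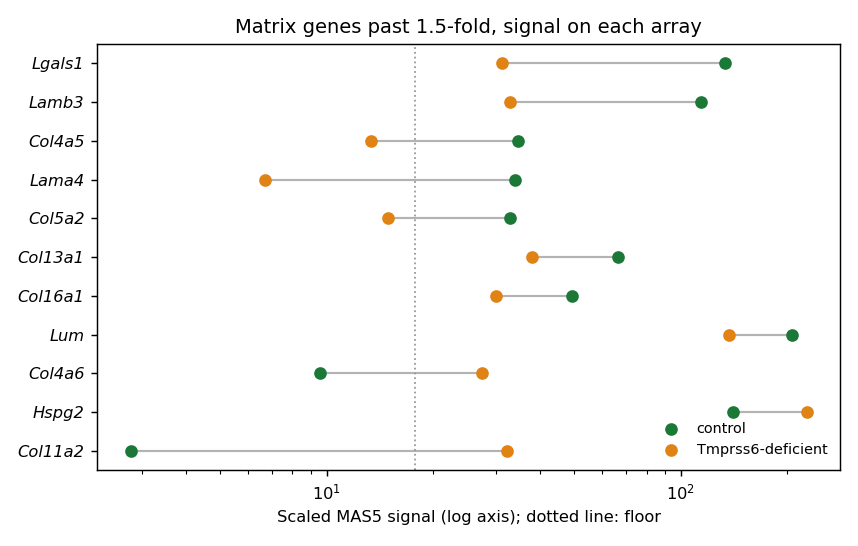
Scaled MAS5 signal (log axis) of the 11 matrix genes past 1.5-fold, with the control array in green, the Tmprss6-deficient array in orange and the floor of 17.8 as a dotted line. For Col4a5, Lama4, Col5a2, Col4a6 and Col11a2 one end lies below the floor, so that only a bound can be given, and the other 6 genes are above it on both arrays.

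Basement membrane genes were also split. Of 21 genes, 16 were measured, 2 lay past 1.5-fold upward and 3 downward, 3 of these 5 by a bound, beside 8.86% and 9.2% of all measured genes. The median was 0.028, a value that was -0.036 with the arrays scaled to the same median. Lamb3, the beta chain of the epithelial laminin-332, read 114 in the control and 32.9 in the Tmprss6-deficient liver on its only probe set (1417812_a_at), 3.46-fold lower. Its log2 ratio of -1.79 stands beside a probe set spread of 0.46. Lama3, the alpha chain of the same laminin, was at 23.5 and 24, a log2 ratio of 0.030. So of these partner chains, 1 differed and 1 did not by 1.5-fold, the latter close to the floor.

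The other laminin chains differed less or were dim. Lama5, the alpha chain found in most adult basement membranes, read 157 and 172, a log2 ratio of 0.13. Lamc1, the common gamma chain, read 41.9 and 55.3 on its brighter set (0.40) and was lower on the other (-0.38). Lamb1 read 42.6 and 52.5 on its brightest set (0.30), and another set, with only its control signal measured, was at least 1.34-fold lower. Lama4, a chain of vessel walls, read 34 and 6.70 and was at least 1.91-fold lower. The mean of all its probe sets was -0.47, short of 1.5-fold. In that mean its other set, below the floor on both arrays, counted as 0 and so shrank the ratio. Lama1 had a log2 ratio of -0.073 and Lamc3 of -0.43, while Lama2 and Lamb2 were below the floor on both arrays.

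Collagen IV is the network of every basement membrane, and its chains are encoded in head-to-head gene pairs. Col4a1 read 194 (control) and 198 (Tmprss6-deficient) on its brighter set, a log2 ratio of 0.026, and 172 and 113 on the other, 1.53-fold lower. Col4a2, which encodes the chain that assembles with it, read 87.8 and 92.3, a log2 ratio of 0.072. The RefSeq starts of this pair lie on opposite strands and the first 22 bases of the 2 genes overlap, so that their promoter windows share 78 bases. This stretch (GRCm38.p6, shown on the + strand, with 1 GGGCGG in capitals) is given because it belongs to both genes and both brightest sets were alike on the 2 arrays.
Col4a1 and Col4a2, chr8:11312805-11312826, + strand: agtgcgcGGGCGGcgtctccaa
The X-linked pair lay near the floor. Col4a5 read 34.7 and 13.3 and was at least 1.95-fold lower, whereas Col4a6 read 9.60 and 27.4 and was at least 1.54-fold higher. The Col4a6 call was lost in 3 of 7 alternatives, at 0.58 with the arrays scaled to the same median or quantile normalised and at 0.31 with the mean of all probe sets. The Col4a5 call was lost with that mean, at -0.48. The other sets of Col4a5 and Col4a6, below the floor on both arrays, counted as 0 in it and so shrank the ratios. Col4a3 and Col4a4, chains of kidney basement membrane, were below the floor on both arrays.

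Perlecan and nidogen link the laminin and collagen IV networks, and the multiplexins are grouped with basement membrane genes here. Hspg2, which encodes perlecan, read 141 and 227 on its brighter set, 1.61-fold higher, and 71.1 and 60.4 on the other, 1.18-fold lower. Its probe sets were therefore in disagreement, and with their mean the log2 ratio was 0.23. Nid1 read 121 and 101, with both measured sets lower (log2 ratios of -0.26 and -0.21). Nid2 was below the floor on both arrays. Col18a1, the source of endostatin and a collagen that hepatocytes make, read 2531 and 2521, a log2 ratio of -0.0054, against a spread of 0.17 at that signal. Its other set was at -0.14, and Col15a1 was at 31.8 and 33.0.

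**Figure D3:**
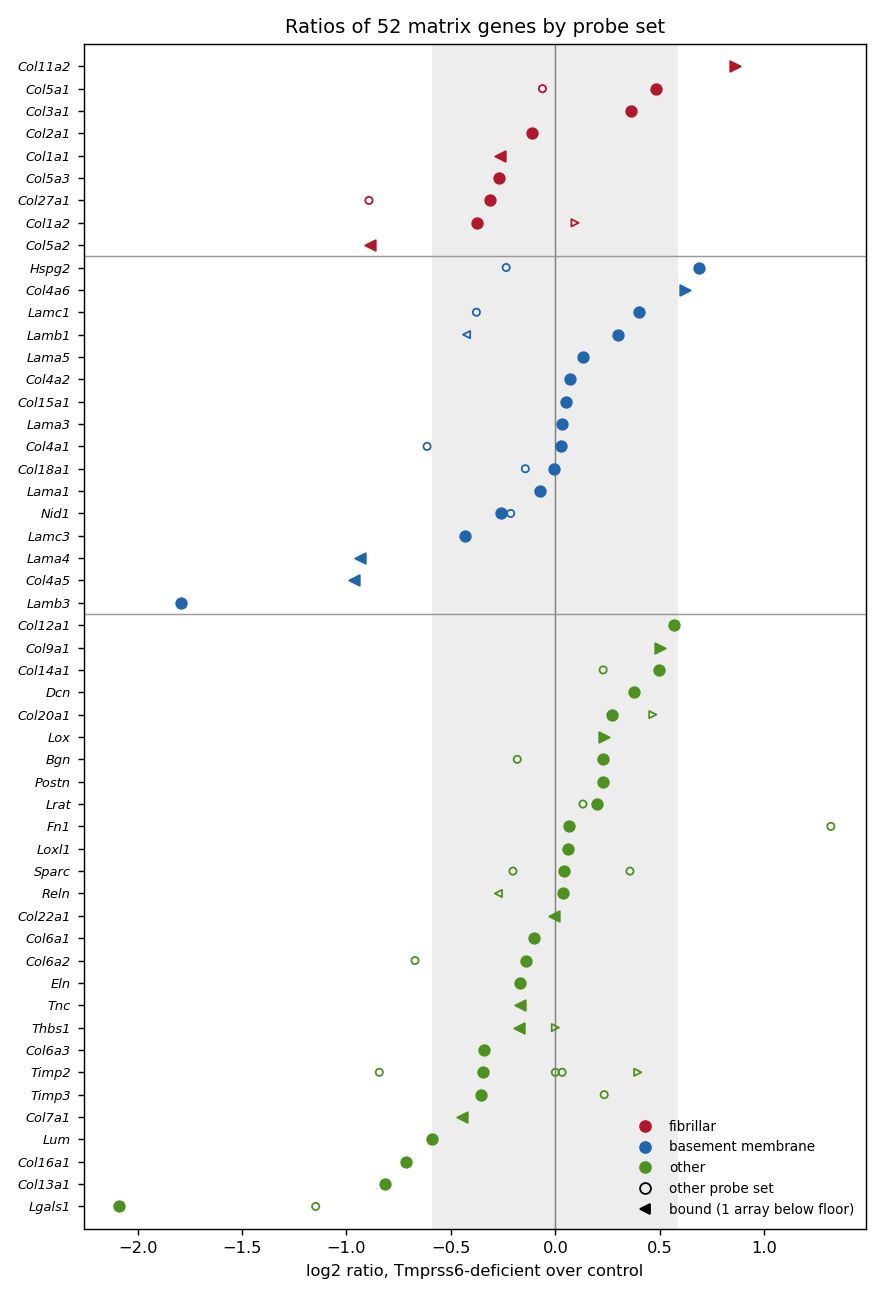
log2 ratio (Tmprss6-deficient over control, horizontal axis) of 52 matrix genes, 1 row per gene, in the groups fibrillar, basement membrane and other from top to bottom. Filled symbols are the brightest probe set, open symbols the other sets, triangles bounds where 1 array was below the floor, and the grey band is 1.5-fold. Filled symbols outside the band belong to 11 genes, and an open symbol of Fn1 lies at 1.32.

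Among the other collagens, 0 of 11 measured genes were higher by 1.5-fold or more and 2 were lower. That is 18.2% either way, near the 18.1% of all measured genes, and 12 of the 23 genes were below the floor on both arrays. Col13a1, a transmembrane collagen of cell junctions, read 66.6 and 37.9, 1.76-fold lower. Col16a1, which sits on fibril surfaces, read 49.3 and 30, 1.64-fold lower. Each has 1 probe set, and the log2 ratios of -0.81 and -0.72 stand beside a spread of 0.46. Col13a1 was at -0.33 with a floor set at the 70th percentile, and Col16a1 at -0.49 with the floor as a pseudocount, both short of 1.5-fold. Col14a1, another fibril-associated collagen, went the other way without passing 1.5-fold, at 178 and 252 (log2 ratio 0.50) with a further set at 0.23. Col12a1 read 18.7 and 27.7, a log2 ratio of 0.57 close to the floor. Collagen VI forms beaded filaments around cells. The log2 ratio was -0.10 for Col6a1, -0.14 for Col6a2 and -0.34 for Col6a3, all 3 below 0, with another Col6a2 set at -0.67.

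Col20a1 had a log2 ratio of 0.27. Col7a1 was at least 1.37-fold lower, Col9a1 at least 1.42-fold higher and Col22a1 was at 17.9 and 3.40. Col8a1, Col8a2, Col9a2, Col9a3, Col10a1, Col17a1, Col19a1, Col23a1, Col25a1, Col26a1, Col6a4 and Col6a5 were below the floor on both arrays. Many of these are collagens of cartilage, cornea, skin or nerve.

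Small leucine-rich proteoglycans, which coat collagen fibrils, differed in both directions. Dcn (decorin) read 1221 and 1587, a log2 ratio of 0.38, which exceeds the spread of 0.17 at that signal but not 1.5-fold. Bgn (biglycan) read 518 and 608 on the brightest of 3 sets, with log2 ratios of 0.23, 0.22 and -0.18. Lum (lumican) read 206 and 137 on its only set and was 1.51-fold lower, just past that threshold, and at -0.53 on the log2 scale with the floor as a pseudocount, short of it.

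Of 5 matrix glycoproteins, 3 were measured in both livers and lay within 1.5-fold on their brightest sets, and 2 (Thbs1 and Tnc) had only a bound. Fn1 (fibronectin) read 6192 and 6485 on probe set 1426642_at, a log2 ratio of 0.067. On 1437218_at it read 118 and 295, or 2.50-fold higher. The 2 sets of Fn1 thus gave the same direction and different sizes, 0.067 and 1.32 on the log2 scale. Sparc, a collagen chaperone, had log2 ratios of 0.041, 0.36 and -0.20 over its 3 measured sets. Postn (periostin), which rises in scar tissue, read 87.1 and 102. Thbs1, an activator of latent TGF-beta, and Tnc (tenascin-C) reached the floor in the control alone, at 20.1 and 20, beside 10.3 and 15.3.

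Inhibitors and crosslinking enzymes, which set how long matrix lasts, were close or dim. Timp1, the inhibitor that rises in fibrosis, read 14.2 and 17.3, below the floor on both arrays, as did Timp4. Timp2 read 132 and 104 on its brightest set, a log2 ratio of -0.35, and its other sets above the floor on both arrays were at -0.84 and 0.033, with one at 85.7 in both livers. Timp3, the matrix-bound inhibitor, was at -0.36 and 0.23 on its 2 measured sets. Lox (lysyl oxidase) read 14.8 and 20.9, Loxl1 20.5 and 21.4, and Eln (elastin) 47.4 and 42.2. Timp2, Timp3, Loxl1 and Eln lay within 1.5-fold on their brightest sets, and Lox had only a bound, at least 1.17-fold higher.

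Lgals1 encodes galectin-1, a lectin that binds laminin and fibronectin and is abundant in smooth muscle and mesenchyme. It read 133 in the control and 31.3 in the Tmprss6-deficient liver on 1455439_a_at, 4.25-fold lower, and 75.1 and 33.9 on 1419573_a_at, 2.22-fold lower. The log2 ratios of -2.09 and -1.15 stand beside probe set spreads of 0.37 and 0.46 at those signals. Lgals1 lies on chromosome 15, as Tmprss6 does, with 13 protein-coding genes between them in RefSeq order. Of those, 10 were measured, 1 was past 1.5-fold upward and 2 downward, with a bound among the downward ones. Over all measured genes these shares were 8.86% and 9.2%. The median of the 10 was 0.023, with bounds included. Whether the difference in Lgals1 comes from its position cannot be told apart from the genotype with these 2 animals.

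The stellate genes of the rule were close on their brightest sets. Reln (reelin), a glycoprotein that quiescent stellate cells secrete, read 559 and 574, a log2 ratio of 0.037. Lrat, the enzyme that esterifies retinol for storage, read 79.5 and 91.3 on its brighter set, with log2 ratios of 0.20 and 0.13. Of 19 stellate cell markers outside the rule, all measured, 4 were past 1.5-fold upward (21.1%) and 3 downward (15.8%). Among all measured genes these shares were 8.86% and 9.2%. The markers had a median log2 ratio of 0.12 and a summed signal of 3495 in the control and 4050 in the Tmprss6-deficient liver. Steap4 was 2.14-fold higher, Pth1r 1.83-fold higher, Ntrk2 2.51-fold lower and Cygb 1.79-fold lower. In a piece of whole liver, fewer cells of a type and less RNA per cell cannot be told apart.

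Markers of contractile cells were lower in the Tmprss6-deficient liver, most of them by large factors. Of 11 measured markers of smooth muscle and myofibroblasts, 7 were at least 1.5-fold lower and 0 that much higher, beside 9.2% and 8.86% of all measured genes. The median log2 ratio of the 11 was -1.83, itself a bound, and 5 of the 7 lower calls were bounds. Over the 5 markers measured in both livers the median was -0.21. Acta2, the smooth muscle actin gene, read 514 in the control and 89.2 in the Tmprss6-deficient liver, 5.76-fold lower, and Tpm2 (tropomyosin) was 3.33-fold lower. Tagln (176 and 16), Myl9 (126 and 15.3), Actg2 (83.6 and 1.0), Myh11 (70.6 and 1.80) and Cnn1 (63.2 and 4.10) reached the floor in the control alone, and the bound for Tagln was at least 9.91-fold lower. Cald1 read 3832 and 3949, and the summed signal, most of it Cald1, was 5317 and 4351. Tpm1 and Des had log2 ratios of -0.21 and 0.067.

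Other cell types that carry matrix genes are given beside these. Of 8 measured portal fibroblast markers, 3 were past 1.5-fold downward and 0 upward, with a median of -0.56 and summed signals of 570 and 401. Dpt (dermatopontin) read 105 and 23.1, 4.53-fold lower, and Entpd2 was 1.60-fold lower, while Gas6 and Pdgfra had log2 ratios of -0.26 and 0.12. Bile duct markers were dim, with 5 of 8 measured, 2 lower and 0 higher, and summed signals of 175 and 80.6. Krt19 read 49.2 and 15.1 and Cldn7 29.1 and 1.10, both measured in the control alone, and Bicc1 had a log2 ratio of -0.33. Sox9, Cftr and Cldn4 were below the floor on both arrays. The 8 lower matrix genes were Lgals1, Lamb3, Lum, Col13a1, Col16a1, Lama4, Col5a2 and Col4a5. In the same liver 7 of 11 contractile, 3 of 8 portal fibroblast, 2 of 5 bile duct and 4 of 12 Kupffer cell markers were lower by 1.5-fold or more. So were 3 of 19 stellate, 3 of 18 endothelial, 2 of 6 erythroid and 1 of 6 neutrophil markers. Of hepatocyte markers 0 of 9 were, and of mesothelial markers 0 of 6. Among all measured genes 9.2% were that much lower. The part of any of these cell types in the lower matrix signals was not tested.

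**Figure D4:**
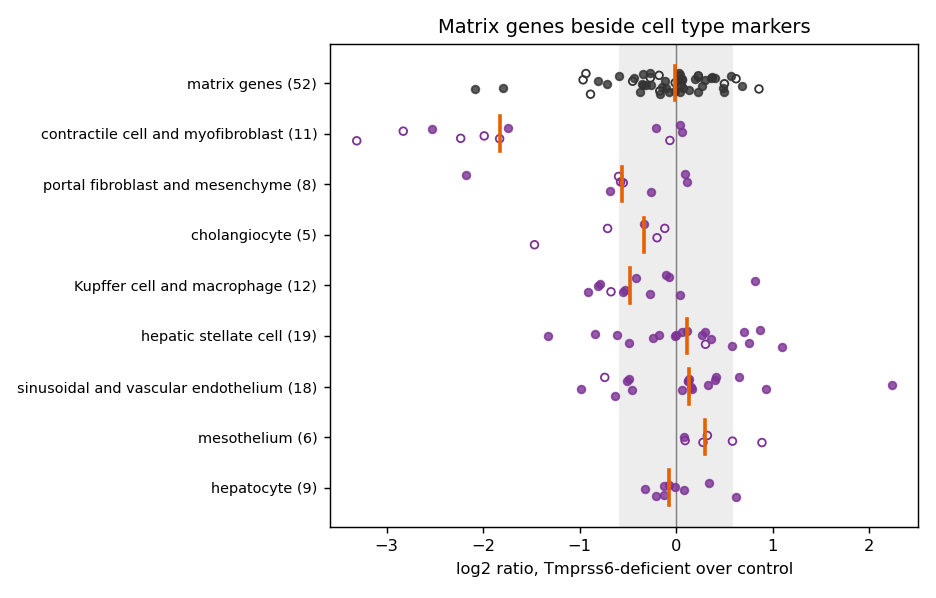
log2 ratio (Tmprss6-deficient over control, horizontal axis) of the 52 measured matrix genes and of the measured markers of 8 cell types, 1 point per gene, with the number of genes in brackets. Open points are bounds with 1 array below the floor, orange bars are medians, vertical scatter within a row has no meaning and the grey band is 1.5-fold. The matrix genes centre on 0, and the contractile markers have a median of -1.83, which is itself a bound.

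Endothelial and hepatocyte markers centred near 0. Of 18 endothelial markers, 3 were past 1.5-fold upward and 3 downward (16.7% each), beside 8.86% and 9.2% of all measured genes. The endothelial markers had a median of 0.13 and summed signals of 2843 and 2924. Lyve1 was 4.71-fold higher, Egfl7 1.91-fold and Oit3 1.57-fold higher, and Clec4g was 1.98-fold lower. For Egfl7, 1 of 3 measured sets was in the opposite direction. Of 12 Kupffer cell and macrophage markers, 4 were lower and 1 higher, with a median of -0.47 and summed signals of 4506 and 3325. C1qb was 1.89-fold, Clec4f 1.76-fold and Vsig4 1.72-fold lower, and Marco was 1.76-fold higher. Mesothelial markers went the other way at signals near the floor, with 2 of 6 higher, 0 lower and summed signals of 1359 and 1528. Most of that sum was Krt8, which hepatocytes also express and which had a log2 ratio of 0.086. Gpm6a (12.1 and 33.0) and Upk3b (2.80 and 26.7) were measured in the Tmprss6-deficient liver alone, and Wt1 was below it on both arrays. The 9 hepatocyte markers had a median of -0.075, with 1 past 1.5-fold upward and 0 downward. Hnf4a was 1.54-fold higher, Fgb, Ass1 and Apob had log2 ratios of 0.35, -0.32 and -0.21, and Alb (albumin) read 29345 and 27851, so that the defining hepatocyte markers of liver were present. Of 6 erythroid markers 2 were lower and 0 higher by 1.5-fold or more, and Alas2, the erythroid enzyme of haem synthesis, read 593 and 232, 2.56-fold lower. Of 6 neutrophil markers 1 was lower and 2 were higher.

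The genes that make, modify and secrete collagen mostly lay within 1.5-fold. Of 19 measured biosynthesis and processing enzymes, 14 were measured in both livers and within 1.5-fold, and 3 had a bound under 1.5-fold. Past 1.5-fold 0 were higher and 2 lower, beside 8.86% and 9.2% of all measured genes. The 19 enzymes had a median log2 ratio of 0.026. Pcolce, which speeds removal of the collagen I propeptide, read 62.8 and 30.3, 2.07-fold lower, and its relative Pcolce2 was at least 1.57-fold lower. Crtap and P4ha1, which hydroxylate collagen prolines or assist in it, had log2 ratios of 0.45 and 0.41, and P3h4 was at -0.57. Serpinh1, the collagen chaperone HSP47, read 37.0 and 48.5.

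Matrix-degrading proteases and their regulators differed in both directions, with 4 of 17 past 1.5-fold downward and 2 upward, beside 9.2% and 8.86% of all measured genes. The median was -0.30, and 2 of the 4 lower calls were bounds. Mmp2, a gelatinase of mesenchymal cells, was 1.72-fold lower on its brighter set with the other set in the opposite direction. Reck, a membrane inhibitor of metalloproteinases, read 65.3 and 36.2, 1.80-fold lower. Plaur, the urokinase receptor gene, was 1.66-fold and Adam15 1.60-fold higher. Mmp7, an epithelial protease, read 37.9 and 5.50 and was at least 2.13-fold lower.

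TGF-beta is the chief inducer of collagen in stellate cells. Of 18 measured genes of the pathway, 15 lay within 1.5-fold, 0 were higher and 3 lower, beside 8.86% and 9.2% of all measured genes. The pathway median was 0.056. Tgfb1 read 58.3 and 36.4, 1.60-fold lower, with its other set in the opposite direction, and Smad2 was 1.96-fold lower on the brighter of 2 sets, both lower. Ccn2 (connective tissue growth factor), a target of the pathway, read 263 and 352, a log2 ratio of 0.42, and its relative Ccn1 was 2.66-fold lower with its sets in disagreement. Tgfb2 and Tgfb3 were below the floor on both arrays.

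Matrix receptors and further matrix proteins differed in both directions. Of 22 measured receptors, 3 were past 1.5-fold upward and 4 downward, beside 8.86% and 9.2% of all measured genes. The receptor median was -0.065. Ddr1, a collagen receptor kinase, was 2.11-fold higher, with all 3 of its measured sets higher. The laminin receptor genes Itga3 and Itga7 were 1.66-fold lower each, and Cd44, a hyaluronan receptor gene, 1.52-fold lower. Of 28 measured matrix proteins outside the rule, 5 were higher and 4 lower, with a median of 0.060. Ntn4 was 1.72-fold, Tnxb 1.69-fold and Fbln5 1.68-fold higher, and Mgp was 1.68-fold lower. Sparcl1, a relative of Sparc found in vessel walls, read 65.2 and 13.5 and was at least 3.66-fold lower.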

How the data were processed

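Values were 1 intensity signal per probe set and array, made by the authors with MAS5, per the submitters' processing notes, and deposited on a linear scale from 0 to 42541. The sources used here give no version, settings or detection calls. The trimmed means of both arrays were already equal (100.0 without the lowest and highest 2% of probe sets). Of 45101 probe sets, 34958 had 1 gene symbol in the platform annotation, 932 had several and 9211 were not listed there. All 73 member genes matched RefSeq (GRCm38.p6) with unchanged symbols.

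Python 3.11.15, numpy 2.4.6 and pandas 2.3.3 scaled the arrays to the same trimmed mean, raised signals to the floor of 17.8 (the 50th percentile without 64 control sets) and took log2. Each gene takes the values of its brightest probe set (by mean log2). Where 1 array fell below the floor, the ratio is a bound against the floor, written "at least" and counted in lists. MAS5 signals near background are noisy, and levels of different probe sets are not compared. Near-identical genes can share probes. Of 272 entries in 15 lists, 20 had no probe set of their own. The steps were tested on simulated data, with differences planted in bright genes only and noise below the probe set spread. How well they recover differences in dim genes or by a bound was not tested.

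Members and lists were chosen with earlier results of these data known. Every measured member may be named, with up to 4 genes of each list that have the largest ratios on both arrays. List genes outside this rule were chosen after their values were seen: the contractile, bile duct and mesothelial genes with bounds or below the floor, Cald1, Alb, Serpinh1, Pcolce2, Mmp7, Sparcl1, Tgfb2 and Tgfb3. Alternatives were 3 scalings, 2 floors, a pseudocount, 2 choices of probe set and a restriction to genes measured in both livers. In the mean of all probe sets, a set below the floor on both arrays counted as a log2 ratio of 0.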

Additional observations from a re-analysis of the deposited data

How the results depend on the processing

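The counts past 1.5-fold, 3 matrix genes higher and 8 lower, depended on the floor. With the floor at the 30th percentile they were 6 and 13 of 64 genes, and at the 70th percentile 1 and 3 of 26. Restricted to genes measured in both livers they were 1 and 5 of 40, and with plain probe sets only 5 of 43 were lower. Each of these settings tests other numbers of genes or gives dim genes another bound. The median log2 ratio of the 52 genes ranged from -0.074 to 0.032 over the 9 alternatives, so its sign is not settled. It ranged from -0.29 to -0.11 for fibrillar collagens, from -0.052 to 0.045 for basement membrane genes and from -0.033 to 0.041 for the others. Lgals1 and Lamb3 were lower by 1.5-fold or more in 8 of 8 alternatives that gave a value, from -2.15 to -1.33 and from -1.86 to -1.11. Lum, Hspg2 and Col13a1 passed 1.5-fold in 8 of 9, Col16a1, Col4a5, Col5a2 and Lama4 in 6 of 7, Col11a2 in 7 of 7 and Col4a6 in 4 of 7. Some alternatives could not change a ratio, so these counts overstate how far the calls were tried. Leaving out the scaling changed next to nothing, and the restriction to genes measured in both livers only drops genes. For genes with 1 probe set, the choices of probe set keep or drop the same value. For Col4a5, Col5a2, Lama4 and Col4a6 a lost alternative was the mean of probe sets. In it their sets below the floor on both arrays counted as 0 and so shrank the ratio. Fn1 was at 0.69 with the mean of its probe sets. No paired analysis was possible because each group holds 1 array. Signal over background limits the 31 genes from the floor to 64.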
